A study of Mus musculus with 18 samples.

Results

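The genes described here encode the proteins of the cytosolic ribosome, measured in microglia, the resident macrophages of the brain. A gene was taken if its symbol is that of a ribosomal protein (Rpl or Rps followed by a number, Rplp0 to Rplp2, or Rpsa) and if the array carries a probe set annotated with that symbol alone. Kinases of the Rps6k family and pseudogene symbols were left out, and each gene was read from its brightest probe set over all 18 arrays. This gave 67 of the 22180 genes with such a probe set, 42 of the large subunit and 25 of the small subunit. A further 12 ribosomal protein symbols, Rpl10 among them, stand only on probe sets that name several genes, and Rps27a was not analysed here.

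Microglia came from untreated C57Bl/6 mice kept under specific pathogen free conditions, and were sorted after a Percoll gradient by gating on CD45+, CD11b+ and Gr1- cells. There were 6 groups of 3 arrays: cortex (mostly grey matter) or corpus callosum (a white matter tract), taken 3 days (P3) or 7 days (P7) after birth or from adults whose age is not given in the labels. No group carried a transgene or a treatment. The labels do not say whether the arrays of a group came from separate animals or pools, so the p-values below measure only the spread between these arrays. P3 arrays carry a different label prefix from the P7 and adult arrays, which share 1 prefix. Arrays with the same prefix are called an array set here. Age and array set cannot be told apart in any comparison with P3.

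The ribosome reads messenger RNA and joins amino acids into protein. Its small subunit decodes the message, its large subunit forms the peptide bonds, and most ribosomal proteins are present in a single copy in each ribosome, so that cells make these proteins in step with one another. Most of their mRNAs begin with a C followed by an unbroken stretch of pyrimidines, the 5′ terminal oligopyrimidine (TOP) tract, through which the growth sensor mTOR complex 1 and the RNA-binding protein LARP1 control their translation and stability. In macrophages as in other cells, ribosome production rises with growth and division.

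The TOP tract could be looked for at the annotated transcription start of 52 of the 67 genes, those found in the RefSeq promoter windows of mouse build GRCm38.p6. In 11 of the 52 (21.2%) the annotated start was a C with at least 4 pyrimidines (C or T) after it, read on the strand of the gene, against 3.01% of 27025 genes with such a window. A gene with several windows counts if any of them matches. All 11 are shown because they carry the element by which these mRNAs are usually recognised. Each line gives the 30 bases around the start, 5′ to 3′ on the strand of the gene, with the tract from the start base onward in capitals.
Rpl14 (chr9:120571502-120571531, plus strand): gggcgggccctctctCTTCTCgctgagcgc
Rpl15 (chr14:18270972-18271001, minus strand): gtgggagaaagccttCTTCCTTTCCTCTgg
Rpl28 (chr7:4792950-4792979, plus strand): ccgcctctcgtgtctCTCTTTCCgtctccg
Rpl35 (chr2:39005117-39005146, minus strand): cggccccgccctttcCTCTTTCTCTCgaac
Rpl38 (chr11:114668565-114668594, plus strand): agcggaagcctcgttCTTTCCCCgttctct
Rps6 (chr4:86857353-86857382, minus strand): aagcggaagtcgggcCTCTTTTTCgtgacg
Rps10 (chr17:27635230-27635259, minus strand): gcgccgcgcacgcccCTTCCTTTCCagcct
Rps18 (chr17:33955651-33955680, minus strand): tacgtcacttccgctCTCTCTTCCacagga
Rplp2 (chr7:141447636-141447665, plus strand): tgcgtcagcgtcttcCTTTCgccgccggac
Rps27 (chr3:90213634-90213663, minus strand): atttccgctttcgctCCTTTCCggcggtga
Rpl32l (chr10:20208424-20208453, plus strand): aaataaaatgaccagCTTCTTCCTTggtgc
The tracts ran for 5 to 13 bases within these windows. The signals of the genes on the 8 lines from Rpl14 to Rps18 fell in adult microglia of both regions, while those of Rplp2, Rps27 and Rpl32l did not pass the test in either (below). Averaged over its probe sets, Rps18 was not called (-0.27 in cortex, adjusted p = 0.177, and -0.25 in callosum, adjusted p = 0.143). For contrast, the windows of Rpl9 and Rps26, the genes with the largest summed fall among those with 1 window and no such tract at the annotated start, are given in the same way. The window of Rps26 does hold a run of at least 8 pyrimidines shortly after the annotated start, left in small letters.
Rpl9 (chr5:65391417-65391446, minus strand): acgcagggccctgacggattacaagaacgt
Rps26 (chr10:128626492-128626521, minus strand): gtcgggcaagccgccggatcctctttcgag
Among the 35 of the 52 genes that fell in both regions, 8 had the tract at the annotated start, and among the other 17 it stood in 3. A start annotated a few bases off hides a tract from this search: a run of at least 8 pyrimidines within 20 bases of the start, on either side of it, was present in 26 of the 52 against 18.4% of all genes, in 18 of the 35 and in 8 of the other 17. The letters CTTCCG, read on both strands of the whole 300 base window, occurred in 33 of the 52 (63.5%) and in 18.8% of all genes. These matches describe the sequence and say nothing on what binds there. The 67 genes lie on 19 chromosomes.

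Signals are given as the authors' RMA values, in log2 units, in which 1 unit is a doubling. A probe set's signal depends on its probes as well as on its mRNA, so signals are compared between arrays and not between genes. The brightest of the 67 were Rpl4, Rpl41 and Rplp1, with means of 12.21, 12.12 and 12.08 over 18 arrays, and the dimmest were Rpl32l, Rpl10l and Rpl22l1, at 2.49, 3.14 and 4.44. The median of all probe sets lay between 5.58 and 5.74 on every array. Of the 67 genes, 58 had a mean at or above 5.77, the median over all genes tested. Near-identical processed copies of many ribosomal protein genes exist in the mouse genome, and a probe set may take up signal from them.

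The arrays carried the microglial markers. The mean of 7 microglial markers lay between 10.59 and 11.60 on every array, with P2ry12 at group means of 11.60 to 12.21. The means of the marker lists for oligodendrocytes, oligodendrocyte precursors, astrocytes, endothelial and mural cells, monocytes and lymphocytes lay between 4.81 and 5.94 on every array. The neuron list lay between 6.61 and 6.96 on the cortex P3 arrays and reached 6.52 in P3 callosum. The list for border-associated macrophages reached 7.28 on a P3 callosum array and lay between 6.38 and 6.86 at P7. Its member Mrc1 had group means of 9.64 to 11.05 at P3 and P7, against 6.13 in adult callosum and 6.82 in adult cortex. The neutrophil list reached 6.29 on a P3 callosum array, and the 1 erythroid marker measured did not exceed 5.66. Both adult arrays numbered 1 had the lowest mean correlation with the other arrays, 0.956 in cortex and 0.953 in callosum, against 0.961 to 0.974 for the rest. The counts of genes called between P7 and adult are therefore also given without both of them, as are some medians and single genes.

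Ribosomal protein genes as a group had 2 levels in these data, one shared by P3 and P7 and a lower one in adults. The mean over the 42 large subunit genes was 8.79, 8.86 and 8.88 on the 3 cortex arrays of P7 and 8.28, 8.31 and 8.33 on the adult cortex arrays. In the callosum it was 8.90, 8.88 and 8.88 at P7 and 8.29, 8.23 and 8.26 in adults. The adult arrays were thus below every P7 array in both regions, and adult cortex and callosum lay close to each other. The 25 small subunit genes behaved alike, with 9.13, 9.17 and 9.28 in P7 cortex against 8.56, 8.64 and 8.60 in adult cortex. In the callosum their means were 9.19, 9.22 and 9.26 at P7 and 8.56, 8.60 and 8.59 in adults. P3 arrays ranged from 8.76 to 8.88 for the large and from 9.09 to 9.20 for the small subunit, at the height of the P7 arrays. In bulk RNA of sorted cells, a lower signal in each cell and a smaller number of cells with a high signal cannot be told apart.

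**Figure D1:**
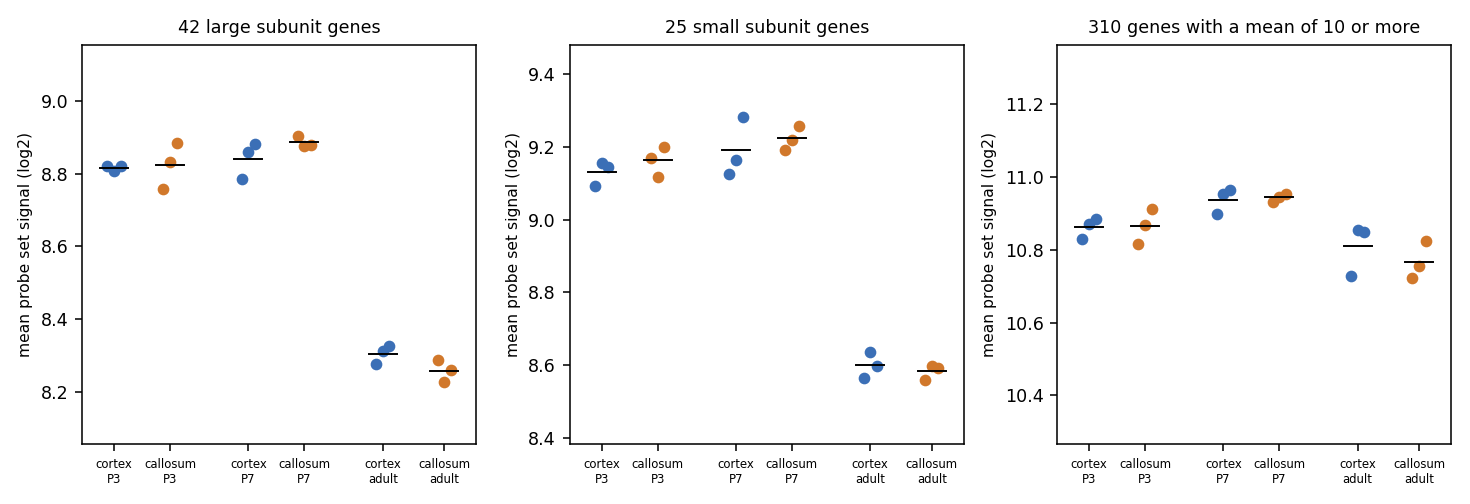
Mean RMA signal (log2) on each of the 18 arrays, for the 42 large subunit genes, the 25 small subunit genes and, as a reference, the 310 genes with a mean of at least 10 over all arrays, bright ribosomal protein genes among them. Points are arrays (blue cortex, orange callosum), lines are group means of 3, and all panels span the same number of log2 units. In the first 2 the adult arrays lie below every P3 and P7 array. In the reference panel the adult arrays (10.72 to 10.86) also lie below the P7 arrays (10.90 to 10.96), and they overlap the P3 arrays (10.82 to 10.91).

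In cortex, 45 of the 67 genes were lower in adult than in P7 microglia and none was higher (limma with Benjamini-Hochberg adjustment over 22180 genes, adjusted p under 0.05), where 6.15% of all genes were lower and 4.05% higher. The 45 comprised 28 of 42 large and 17 of 25 small subunit genes. In callosum, 48 of the 67 were lower and none was higher, 29 of the large and 19 of the small subunit, against 10.7% of all genes lower and 6.56% higher. The median difference over the genes of a subunit, whether called or not, was -0.55 for the large and -0.61 for the small subunit in cortex, and -0.65 and -0.59 in callosum, where the medians of all genes were 0.03 and 0.05. Among the genes called, the fall ranged from 1.30-fold to 2.73-fold in cortex and from 1.24-fold to 3.17-fold in callosum. It reached 2-fold for 12 genes in cortex and 16 in callosum. Without both adult arrays numbered 1, 41 genes were lower in cortex and 45 in callosum, where Rps27 was then higher. Of the 45 genes, 34 were called under every alternative that tested them, and of the 48, 38 were.

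Most of these genes were called in both regions: 43 were lower in both, 2 in cortex only, 5 in callosum only and 17 in neither. Of all genes, 5.27% were lower in both, 0.884% in cortex only and 5.41% in callosum only. The adult minus P7 differences of cortex and callosum had a Pearson correlation of 0.85 and a Spearman correlation of 0.84 over the 67 genes. Both are given as a description, since arrays of both regions share a chip design, a normalization and a label prefix. Whether the fall differed between regions was tested as the difference of the adult minus P7 changes, and none of the 67 genes was called (0.203% of all genes were; 7 of the 67 had an unadjusted p under 0.05, and the lowest adjusted p was 0.375). All 3 adult arrays were below all 3 P7 arrays for 49 genes in cortex, where this held for 13.7% of all genes, and for 48 in callosum, against 17.0%.

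**Figure D2:**
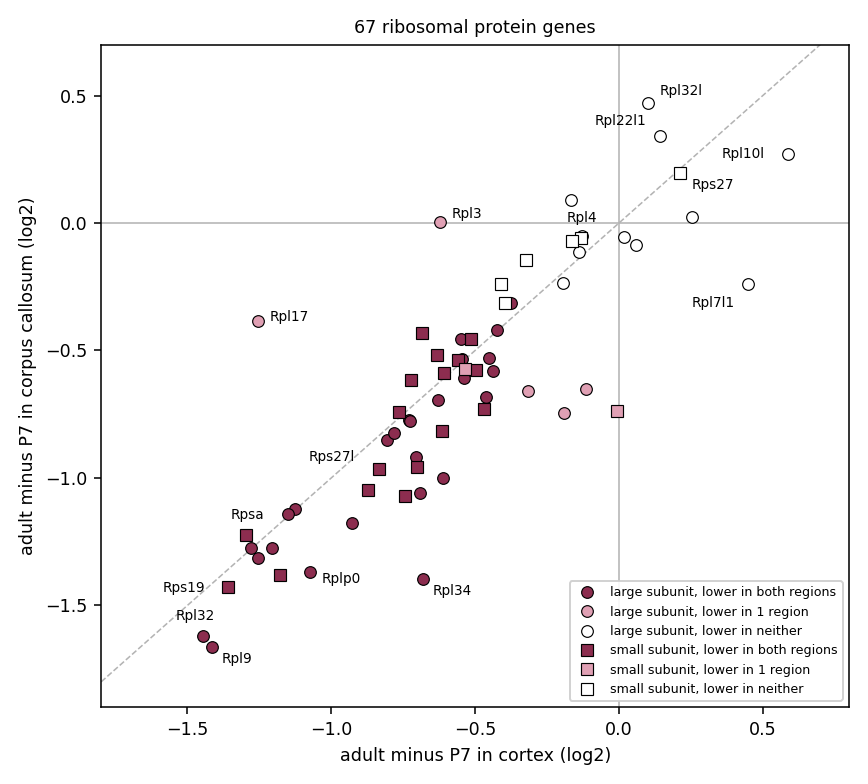
Adult minus P7 difference of each of the 67 genes (log2), cortex on the horizontal and callosum on the vertical axis, with circles for large and squares for small subunit genes. Dark symbols were lower in both regions (43), pale ones in 1 region (7) and open ones in neither (17); the dashed line marks equal differences.

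Among large subunit genes, Rpl32 and Rpl9 fell furthest. Rpl32 read 11.47, 11.69 and 11.62 in P7 cortex and 9.89, 10.25 and 10.31 in adult cortex, and 11.59, 11.74 and 11.58 in P7 callosum and 10.11, 9.89 and 10.05 in adult callosum. No adult array came near a P7 array, and the fall was 1.45 ± 0.15 (SE) on the log2 scale in cortex (2.73-fold; adjusted p = 1.22e-06) and 1.62 ± 0.15 in callosum (3.07-fold; adjusted p = 2.62e-07). Rpl9, a protein at the base of the ribosomal stalk, read 8.74, 9.15 and 9.70 in P7 cortex against 7.30, 8.14 and 7.91 in adults, and 9.52, 9.25 and 9.60 in P7 callosum against 7.86, 7.58 and 7.92. Its arrays spread more widely within groups, with a difference of -1.41 ± 0.23 in cortex (adjusted p = 2.77e-04) and -1.66 ± 0.23 in callosum (adjusted p = 3.34e-05). Averaged over its probe sets, Rpl9 fell by 0.89 and 0.96.

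Rpl10a, the protein tagged in mice made for translating ribosome affinity purification, read 10.43 to 10.52 on the P7 cortex arrays and 9.15 to 9.28 on the adult ones, with a difference of -1.26 ± 0.12 (adjusted p = 5.84e-07). In callosum it read 10.56 to 10.61 at P7 and 9.57, 9.16 and 9.08 in adults, a difference of -1.31 ± 0.12 (adjusted p = 3.07e-07). Adult and P7 arrays did not overlap in either region, and neither did those of Rpl8, Rpl15 and Rpl14. Rpl8, which lies beside the centre that forms peptide bonds, differed by -1.28 in both regions. Rpl15 differed by -1.15 in cortex and -1.14 in callosum, and Rpl14 by -1.13 and -1.12. Rpl37a differed by -0.93 in cortex and -1.18 in callosum. Rpl22, whose tagged form is used to isolate ribosomes from chosen cell types, fell less, from 7.24 to 7.36 in P7 cortex to 6.72 to 6.80 in adult cortex (-0.55 ± 0.10, adjusted p = 0.00137), and by 0.46 in callosum (adjusted p = 0.00414).

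The ribosomal stalk recruits the elongation factors and consists of Rplp0, its scaffold, with dimers of Rplp1 and Rplp2. Rplp0 read 7.91, 8.02 and 8.40 in P7 cortex and 6.70, 7.05 and 7.36 in adult cortex, a difference of -1.07 ± 0.18 (adjusted p = 5.50e-04). It fell by 1.37 ± 0.18 in callosum (adjusted p = 3.05e-05). A second probe set of Rplp0, with a mean of 7.20 against 7.91 for the one used, differed less, by -0.43 in cortex and -0.53 in callosum. Rplp1 read 12.05 to 12.17 in P7 cortex and 11.62 to 11.71 in adults, a difference of -0.44 ± 0.12 with an adjusted p of 0.0185. The adjusted p was between 0.0665 and 0.179 under 4 of 16 alternatives, among them leaving out adult cortex array 2 (-0.41) or P7 cortex array 2 (-0.41) or 3 (-0.43). In callosum Rplp1 differed by -0.58 ± 0.12 (adjusted p = 0.00142). Rplp2 had a mean of 5.49, near the array medians, and differed by 0.02 (95% interval -0.45 to 0.48) in cortex and -0.05 (-0.51 to 0.41) in callosum. The interval holds the estimated fall of Rplp1 in cortex and leaves out the estimate in callosum, which has its own error. Rplp1 and Rplp2 were not tested against each other. A brighter probe set that names Rplp2 with other symbols (mean 7.77) differed by -0.41 in cortex and -0.21 in callosum without passing. Its signal cannot be assigned to 1 gene.

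Of the small subunit, Rps19, which is needed to mature the small subunit's ribosomal RNA and is mutated in human Diamond-Blackfan anaemia, read 10.79, 10.90 and 11.03 in P7 cortex and 9.53, 9.50 and 9.63 in adult cortex. In callosum it read 10.93 to 11.02 at P7 and 9.66, 9.53 and 9.48 in adults. Both falls exceeded any spread within groups, at 1.36 ± 0.10 (adjusted p = 3.29e-08) and 1.43 ± 0.10 (adjusted p = 2.38e-08) on the log2 scale. Rps26, which touches the mRNA where it leaves the subunit, read 11.14 to 11.18 in P7 callosum and 9.67 to 9.93 in adult callosum, and fell by 1.38 ± 0.11 there and by 1.18 ± 0.11 in cortex. Rpsa, also known as the laminin receptor, read 9.71 to 9.78 in P7 cortex against 9.04, 8.14 and 8.17 in adults, with adult array 1 nearest to P7. Its difference was -1.30 ± 0.19 in cortex (adjusted p = 1.30e-04) and -1.22 ± 0.19 in callosum (adjusted p = 1.58e-04).

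Rps6, the protein that S6 kinases phosphorylate when mTOR complex 1 is active, had some of the tightest replicates. It read 12.08, 12.04 and 12.03 in P7 cortex and 11.56, 11.55 and 11.56 in adult cortex, and 11.92, 12.02 and 11.98 in P7 callosum and 11.42, 11.37 and 11.40 in adult callosum. The groups did not overlap, and the fall was modest, 0.50 ± 0.09 on the log2 scale in cortex (1.41-fold; adjusted p = 9.10e-04) and 0.58 ± 0.09 in callosum (1.49-fold; adjusted p = 1.46e-04). Quantile normalized once more, the falls were 0.32 and 0.37 and still passed the test. Rps4x, encoded on the X chromosome, differed by -0.87 ± 0.14 in cortex and -1.05 ± 0.14 in callosum. The other small subunit genes called in cortex fell by 0.47 (Rps10) to 0.83 (Rps27l) on the log2 scale.

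**Figure D3:**
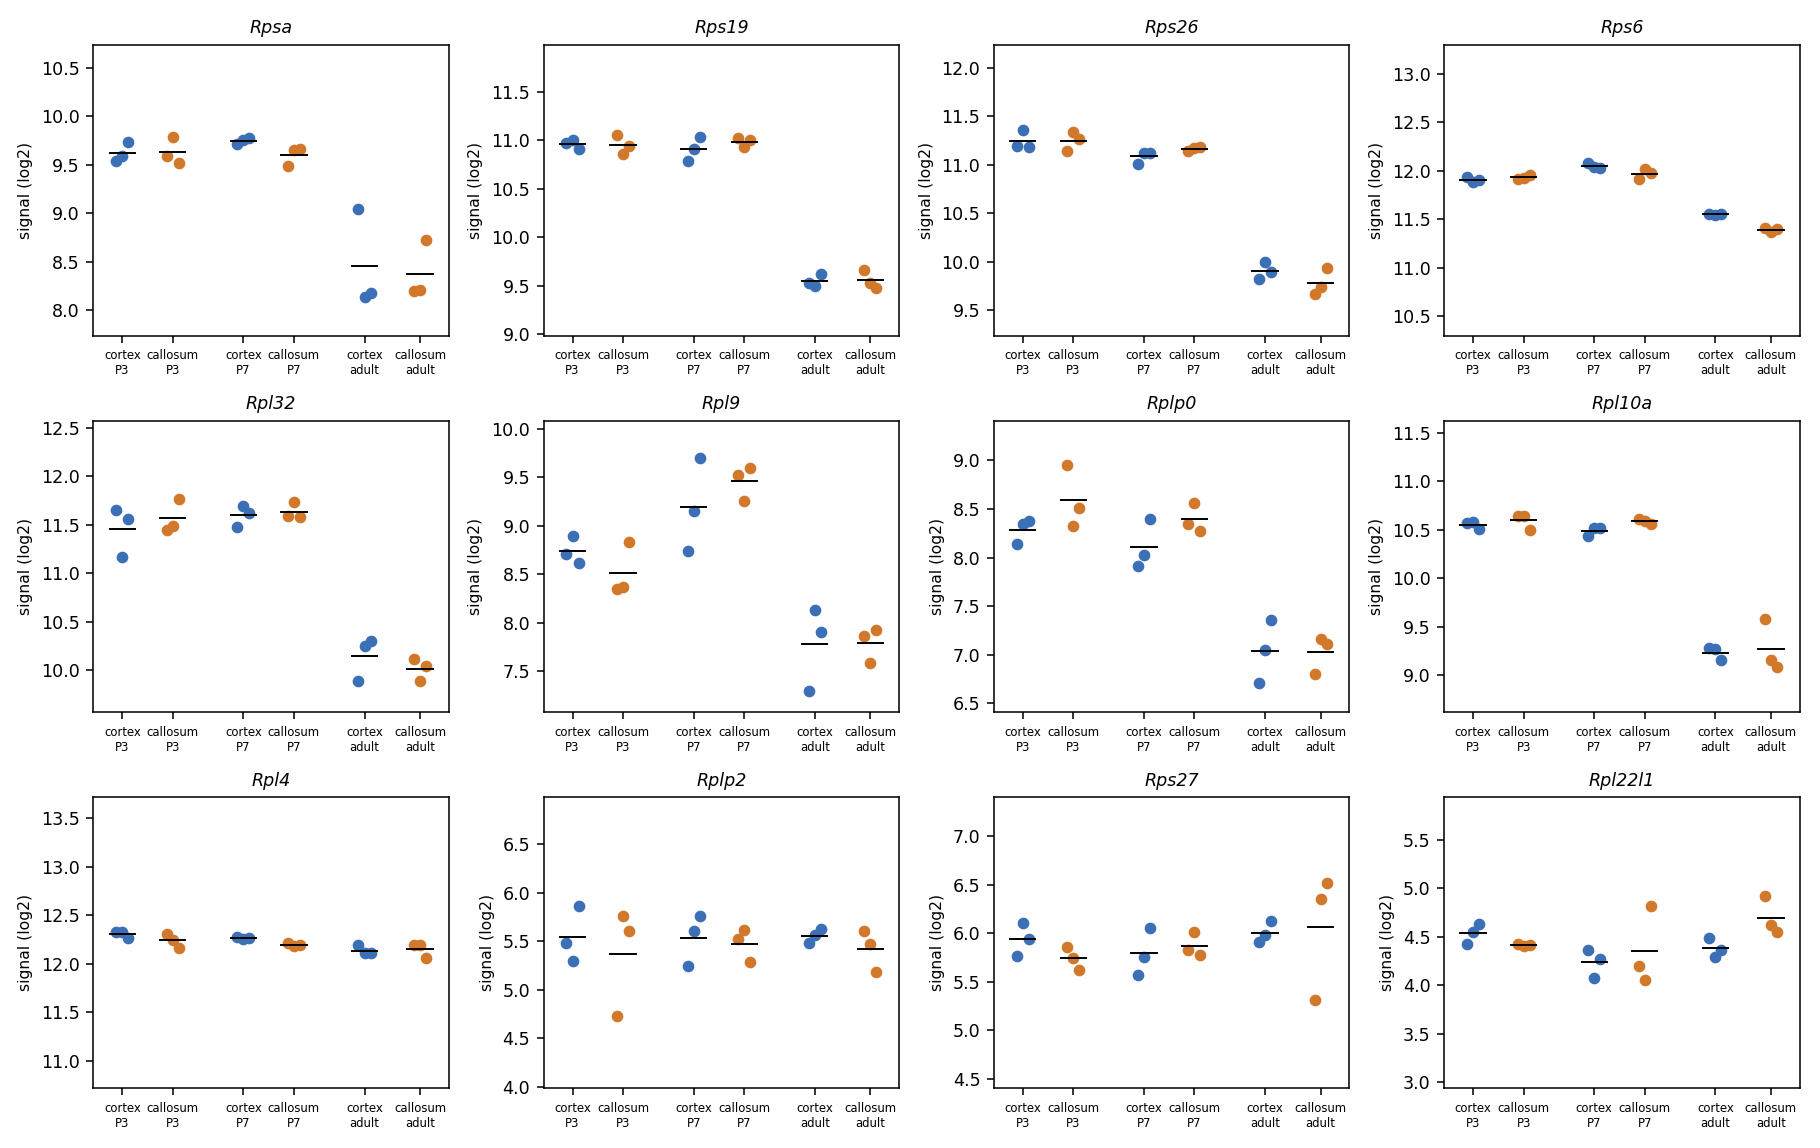
RMA signal (log2) on every array for 8 genes that were lower in adults of both regions (upper and middle rows) and 4 that did not pass the test in either (lower row). Points are arrays, blue for cortex and orange for callosum, lines are group means of 3, and all panels span 3 log2 units; Rpl4 stays between 12.05 and 12.33 throughout.

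Of the 17 genes that passed the test in neither region, 11 were genes of the main set. Rpl4, which lines the exit tunnel of the large subunit, was read bright and flat, at 12.26 to 12.27 in P7 cortex and 12.11 to 12.19 in adult cortex, a difference of -0.13 ± 0.09 (adjusted p = 0.521), and -0.05 in callosum. The 2 cortex groups did not overlap, although they lay this close. A second probe set of Rpl4, with a mean of 11.26, differed by -0.81 in cortex and -0.95 in callosum, so the 2 probe sets of this gene disagree, and with the mean of both the gene was called lower in both regions (-0.47 and -0.50). Rpl39 (-0.19 and -0.23), Rps27 (0.21 and 0.19), Rps16 (-0.32 and -0.15) and Rps29 (-0.13 and -0.06) were dim, with means of 4.56 to 6.04. Probe sets that name several genes, whose signal cannot be assigned to 1 gene, read differently. A bright probe set that names Rps16 (mean 11.64) was called lower in cortex (-0.92) and callosum (-0.85). A bright probe set that names Rps27 (mean 12.06) differed by -0.28 and -0.24 without passing. A probe set that names Rpl39 (-0.46 and -0.70) was called lower in callosum. Rps27 read 5.32, 6.36 and 6.52 in adult callosum, and without the first of these arrays its difference there became 0.57 with an adjusted p of 0.0172. Rps14 (-0.41 and -0.24) and Rps20 (-0.40 and -0.31) leaned the same way as the genes that fell without passing, with adjusted p-values of 0.156 and 0.0797 in cortex. Rps20 was called lower in cortex with low genes left out (adjusted p = 0.0359) and without adult array 2 (-0.53, adjusted p = 0.0230). In callosum it was called lower without both adult arrays numbered 1 (-0.42, adjusted p = 0.0401). Rpl5 and Rpl11, whose means were 6.65 and 6.58, encode proteins that bind 5S ribosomal RNA and, when free of the ribosome, the p53 regulator MDM2. Rpl5 differed by 0.25 ± 0.15 in cortex and 0.02 in callosum, and Rpl11 by -0.17 ± 0.19 and 0.09.

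Of 7 genes that encode a second form of a ribosomal protein, only Rps27l was called lower. Rpl10l, Rpl22l1 and Rpl3l were dim, with means of 3.14, 4.44 and 4.87, below the median of 5.77 over all genes. Whether these dim genes are expressed here was not tested. Rps27l read 7.43 to 7.61 in P7 cortex and 6.60 to 6.79 in adult cortex, a difference of -0.83 ± 0.15 (adjusted p = 8.57e-04), and differed by -0.97 ± 0.15 in callosum (adjusted p = 1.33e-04), while its partner Rps27 was not called. Rpl22l1, the second form of Rpl22, differed by 0.14 in cortex and 0.34 ± 0.16 in callosum (adjusted p = 0.171), where leaving out P7 array 3 gave 0.57 with an adjusted p of 0.00855. Rpl7l1 (0.45 and -0.24) and Rpl10l (0.59 and 0.27) were not called. In cortex each was called higher under 2 alternatives, Rpl7l1 with low genes left out (adjusted p = 0.0373) and with array weights (adjusted p = 0.0159), and Rpl10l with array weights (adjusted p = 0.0329) and without adult array 2 (0.73, adjusted p = 0.0359). Rpl3l, known from muscle, and Rpl39l, known from testis, differed by at most 0.14 in size, and Rps4l by -0.17 and -0.07. Rpl6l and Rpl32l, whose symbols are those of copies, were counted among the 60 genes of the main set. Rpl6l fell by 1.21 in cortex and 1.28 in callosum, while Rpl6 differed by -0.61 and -0.999 (without adult cortex array 1, -0.40 with an adjusted p of 0.148), and shared hybridisation between the copies was not tested. Rpl32l differed by 0.10 and 0.47 (adjusted p = 0.112).

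A few genes were called in 1 region only. Rpl17, which lines part of the exit tunnel, read 7.01 to 7.19 in P7 cortex and 5.57 to 6.25 in adults, a difference of -1.25 ± 0.19 (adjusted p = 1.72e-04). In callosum it read 6.61 to 6.99 and 6.08 to 6.84, with overlapping groups and a difference of -0.38 ± 0.19 (adjusted p = 0.197). Without both adult arrays numbered 1 the callosal difference was -0.57 with an adjusted p of 0.0274. The test of the difference between regions did not pass (0.87 ± 0.27, adjusted p = 0.375). Rpl3, near the centre that forms peptide bonds, read 10.74 to 10.92 in P7 cortex and 10.06 to 10.32 in adults, and 10.48 to 10.72 in P7 callosum and 10.49 to 10.69 in adults. Its fall of 0.62 in cortex (adjusted p = 0.0274) did not pass under 8 of 16 alternatives, 5 of which left out 1 cortex array, and the adjusted p then lay between 0.0549 and 0.115. Averaged over the probe sets of Rpl3 the fall was 0.38. Rpl26, Rpl27a, Rpl30, Rps15 and Rps23 were called in callosum only, with differences of -0.57 to -0.75. Rps23 differed almost as much in cortex (-0.54, adjusted p = 0.0754) and was called there under 3 alternatives. All of these genes but Rpl27a lost the call in callosum under 4 to 8 alternatives, and Rps15 differed by -0.43 without adult callosum array 3. The 5 genes were read from dim probe sets, with means of 5.55 to 6.51. Brighter probe sets that name Rpl26 (mean 10.92) or Rpl27a (mean 11.58) together with other symbols were called lower in cortex too (-0.63 and -0.38). Another that names Rpl27a (mean 9.04) passed in neither region. Those that name Rpl30 with means of 11.78 and 11.94 passed in callosum only. Rpl34 read 6.49, 6.89 and 6.83 in P7 cortex and 5.69 to 6.66 in adults, overlapping (-0.68, adjusted p = 0.0398; between 0.134 and 0.193 under 6 alternatives). In callosum its arrays were far apart, at 6.79 to 7.23 and 5.41 to 5.62, a fall of 1.40 (adjusted p = 7.76e-05).

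The share of ribosomal protein genes called was larger at higher signal. Of the 38 genes with a mean of at least 8, 37 were lower in adult cortex (all but Rpl4) and 36 in adult callosum (all but Rpl3 and Rpl4), while 19.9% and 33.4% of all genes at that signal were. Of the 29 dimmer genes, 8 and 12 were lower, against 4.52% and 7.98%. The level of 8 was chosen after the values were seen. Among all genes with a mean of at least 10, 30.0% were lower in cortex and 39.7% in callosum, with medians of -0.07 and -0.16. The size of the fall did not grow steadily with signal: in cortex the median was -1.21 for the 7 genes between 8 and 10, -0.72 for the 26 between 10 and 12 and -0.55 for the 5 at 12 or more. In callosum it was -1.22, -0.80 and -0.53. Whether the brightest probe sets compress differences was not tested.

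**Figure D4:**
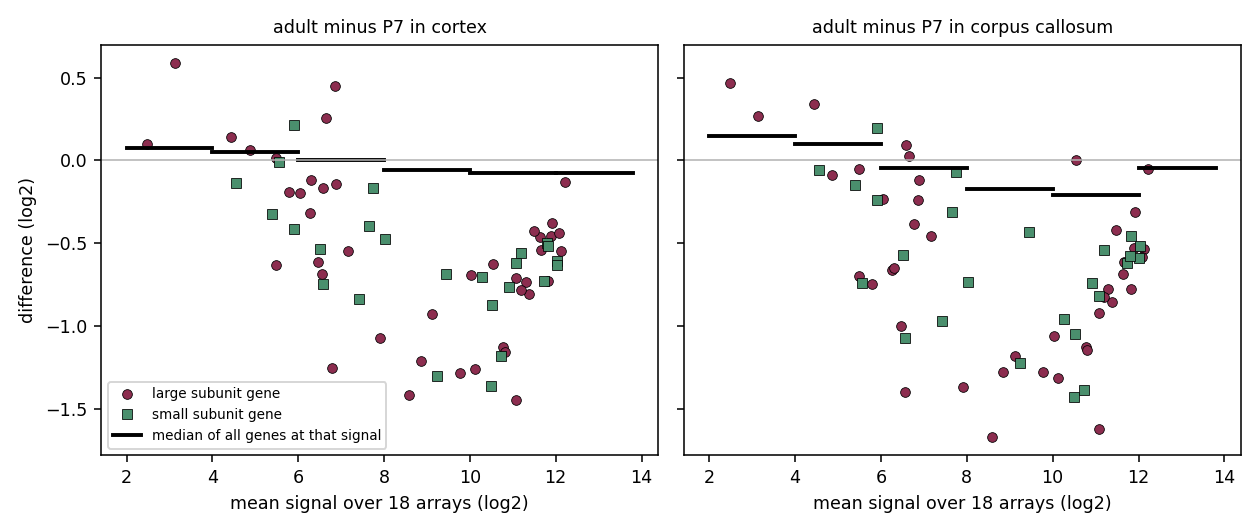
Adult minus P7 difference (log2) of the 67 genes against their mean RMA signal over 18 arrays (log2), in cortex on the left and callosum on the right. Black lines give the median of all genes in each range of signal, which stays within 0.21 of 0, while most ribosomal protein genes above a signal of 8 lie well below the lines.

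Other probe sets of the same genes served as a second reading of the same arrays. After probe sets with identical values were set aside, 34 remained. In cortex 31 of the 34 were lower in adults together with the probe set used, by sign alone, and in callosum 27. All 15 with a mean of at least 8 were lower in both regions, with medians of -0.64 and -0.81. Of the 19 with a mean under 8, 16 in cortex and 12 in callosum were lower together with the probe set used. Their medians were -0.36 and -0.25, against -0.69 and -0.74 for the probe sets used. The share of all probe sets lower by sign was not counted.

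Genes around the ribosome were described from 7 lists, whose members overlap in part. Of all genes, 6.15% were lower in adult cortex and 10.7% in adult callosum. Among mRNAs known to start with a TOP tract but outside the ribosome's own genes, 13 of 16 measured were lower in adult cortex and 15 in callosum, with medians of -0.58 and -0.68. They included Nap1l1, a histone chaperone (-1.68 and -1.67), and Eif4b, a cofactor of mRNA unwinding (-0.94 and -1.29). Elongation and termination factors were lower for 7 of 11 in cortex and 8 in callosum, among them Eef1g (-1.02 and -1.11). Eef1e1 also fell (-0.92 and -1.04), although its protein belongs to a complex of transfer RNA synthetases. The member that rose in both regions, by 1.29 ± 0.18 in cortex and 1.28 ± 0.18 in callosum, was Eef2k, the kinase that inhibits elongation factor 2. Eef2 itself fell by 0.67 in cortex.

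Initiation factors were lower for 12 of 32 in cortex and 20 in callosum, among them Eif4b and Eif3a, a subunit of the scaffold eIF3 (-1.09 and -1.29). Ribosome biogenesis factors were lower for 12 of 41 and 19 of 41. Among them were Nhp2, a protein of the particles that modify ribosomal RNA (-1.33 and -1.39), and Ncl, nucleolin (-1.07 and -1.14). Of 12 subunits and factors of RNA polymerase I, which transcribes ribosomal RNA, 2 were lower in each region, with Polr1a in both (-0.57 and -0.60). This count is near the share of all genes with a mean between 6 and 8, 10.1% in cortex and 18.2% in callosum. Growth signalling genes were lower for 2 of 14 in cortex, Myc (-0.69) and Eif4ebp2 (-0.45), and for 4 in callosum. Rptor, the scaffold of mTOR complex 1, rose by 0.42 and 0.47. The means of this list also lay between 6 and 8, and its cortex count is near the same share of 10.1%. The mitochondrial ribosome, a separate machine for the few proteins of the mitochondrial genome, had 10 of 71 genes lower in cortex, led by Mrpl28 (-0.64), and 32 in callosum, led by Mrpl18 (-1.30). Its medians of -0.18 and -0.39 were nearer to 0 than those of the cytosolic ribosome. Its cortex count is near the 10.1% of all genes with a mean between 6 and 8, while its callosum count is above the 18.2% there. No test compared the lists with each other.

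**Figure D5:**
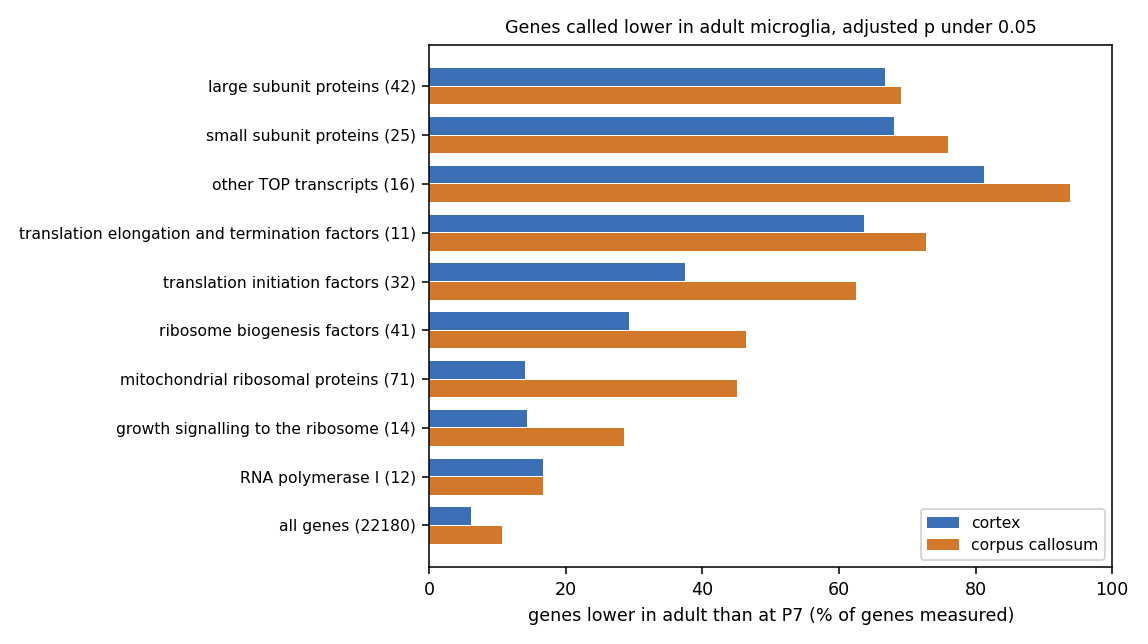
Share of genes called lower in adult than in P7 microglia (percent of the genes measured, number in brackets), for the subunits of the cytosolic ribosome, the 7 lists and all genes, in cortex (blue) and callosum (orange). The TOP mRNAs outside the ribosome have the longest bars, and every list lies above the share of all genes, 6.15% in cortex and 10.7% in callosum. That share is not matched for signal: of all genes with a mean between 6 and 8, 10.1% were lower in cortex and 18.2% in callosum. Between 8 and 10 it was 18.4% and 32.5%, and between 10 and 12 it was 31% and 41.5%. The TOP mRNAs had group means of 9.26 to 10.03.

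Other groups of genes moved between the same adult and P7 arrays. Of all genes, 6.15% were lower and 4.05% higher in adult cortex, and 10.7% lower and 6.56% higher in adult callosum. All 7 cell cycle genes measured were lower in adults of both regions, Top2a by 4.99 in cortex and 4.45 in callosum, and their mean went from 8.87 to 9.13 in P7 cortex and 8.11 to 8.81 in P7 callosum to 4.89 to 5.18 and 5.04 to 5.25. Of 12 genes of the response to tissue dissociation, 10 were higher in adult cortex and 9 in adult callosum, with Hspa1a up by 3.32 and 2.80. Their mean went from 6.84 to 7.12 and 6.86 to 7.19 at P7 to 8.14 to 8.82 and 8.12 to 8.49 in adults. Border-associated macrophage markers were lower for 2 of 6 and 3 of 6, with Mrc1 down by 4.23 and 4.44 on the log2 scale and a list mean of 6.38 to 6.86 at P7 against 5.22 to 5.32 in adults. Neuronal markers were lower for 3 of 8 in cortex (Gap43 by 1.56 on the log2 scale) and 0 of 8 in callosum. Microglial markers were higher for 4 of 7 and 5 of 7, such as Tmem119 (1.03 and 1.56). Of the remaining lists, 0 to 2 genes each were called in a direction, such as 2 of 6 astrocyte markers higher in adult cortex. The part of these groups in the fall of ribosomal protein genes was not tested.

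Cortex and callosum were compared at each age. At P3, none of the 67 genes was called in either direction (limma; 0.505% of all genes were, and 7 of the 67 had an unadjusted p under 0.05). The median difference, callosum minus cortex, was 0.04 for the large and 0.00 for the small subunit. The lowest adjusted p was that of Rpl3 (-0.61 ± 0.18, adjusted p = 0.127), which read 10.98, 10.57 and 11.08 in cortex and 9.83, 10.29 and 10.67 in callosum, with overlapping arrays. Without callosum array 3, Rpl3 was called. Callosum arrays lay wholly below the cortex arrays for 5 of the 67 genes and wholly above for another 5, where 6.67% and 9.17% of all genes did. On the same arrays the neuronal gene Gap43 was lower in callosum by 1.27 and the macrophage gene Ms4a7 higher by 1.53.

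At P7 again none of the 67 was called (0.451% of all genes were; 1 of the 67 had an unadjusted p under 0.05), with medians of 0.05 for both subunits. That gene was Rpl7l1, which read 6.76, 6.76 and 6.27 in cortex and 7.22, 7.01 and 7.19 in callosum (0.54 ± 0.16, adjusted p = 0.236). Arrays were separated, callosum lower, for 5 genes (7.76% of all genes) and, callosum higher, for 6 (8.97%). In adults none of the 67 was called (0.00451% of all genes were, and 9 of the 67 had an unadjusted p under 0.05), with medians of -0.01 and 0.02. Rpl17 (0.63 ± 0.19, adjusted p = 0.424) and Rpl7 (-0.38 ± 0.12, adjusted p = 0.438) came nearest. Arrays were separated for 6 genes with callosum lower (6.07% of all genes) and 5 with callosum higher (6.73%). The 95% interval of the regional difference lay within 1.5-fold in either direction for 52 of the 67 genes at P3, 57 at P7 and 53 in adults, and within 2-fold for 66, 67 and 66. For those genes a regional difference beyond these bounds lies outside the interval.

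From P3 to P7, again with array set and age not separable, none of the 67 genes was called in cortex (0.884% of all genes were; 4 of the 67 had an unadjusted p under 0.05) or in callosum (0.739% of all genes; 15 of the 67). The medians were 0.02 and 0.06 for the large and small subunit in cortex and 0.08 and 0.04 in callosum. In callosum Rpl5 read 6.79, 7.27 and 7.09 at P3 and 6.62, 6.22 and 6.39 at P7 (-0.64 ± 0.15, adjusted p = 0.0543). Rpl9 read 8.35, 8.37 and 8.83 at P3 and 9.52, 9.25 and 9.60 at P7 (0.94 ± 0.23, adjusted p = 0.0606). Neither pair of groups overlapped, and leaving out P3 callosum array 3 brought 4 of the 67 genes under the threshold. The change of the regional difference from P3 to P7 was called for 0% of all genes and for none of the 67, of which 3 had an unadjusted p under 0.05.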

How the data were processed

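RNA of sorted microglia was amplified (Ovation PicoSL), biotin-labelled and hybridised to Affymetrix arrays, per the labels. The deposited values are log2 signals of 41345 probe sets after RMA (background correction, quantile normalization and summarisation), per the submitters' processing notes, which give no version, and they hold no detection call or background level. The log base follows from RMA and the range of the values (0.87 to 13.78). Quantile normalization gives arrays a common distribution, so a difference is relative to the other genes.

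Probe sets with 1 gene symbol (23521; 1814 name several and 16010 none) were reduced to the brightest per gene, 22180 genes. All 67 symbols were matched to RefSeq. The model was limma 3.58.1 (R 4.3.3) with 1 mean per group, 12 residual degrees of freedom and empirical Bayes moderation, tested on simulated data first, with Benjamini-Hochberg adjustment over all genes in each of 9 comparisons and calls at an adjusted p under 0.05. SE is the moderated standard error and n is 3 arrays per group. With 3 arrays the number of arrays limits the precision, and the median 95% interval of a difference between groups was ± 0.29.

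The text names, per comparison, up to 12 called genes in each direction with the largest difference, a panel of well-known ribosomal proteins and second copies, the 3 brightest and dimmest, and up to 3 called genes per list and direction; further genes were named after their values were seen. The genes, lists and tests were chosen with earlier results of these data known. Motif searches used RefSeq windows from 250 bases before to 50 after the start.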

Additional observations from a re-analysis of the deposited data

Results flagged for a closer look

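In 3 genes the arrays of cortex and callosum were completely separated in opposite directions at 2 ages. Rpl3 was lower in callosum than in cortex at P7 (-0.25) and higher in adults (0.38); the change between these ages was 0.63 ± 0.25 and did not pass (limma, adjusted p = 0.565). Rpl34 was higher in callosum at P3 (0.37) and lower in adults (-0.51). Rpl5 was likewise higher at P3 (0.39) and lower in adults (-0.37). For Rpl34 and Rpl5 the difference between P3 and adult was not tested. Complete separation of a region's arrays in a given direction held for 6.07% to 9.17% of all genes in these comparisons.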

How the results depend on the processing

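Under the alternatives run, no difference past the threshold changed sign. The number of ribosomal protein genes called between P7 and adult, in either direction, ranged from 37 to 48 in cortex and 43 to 48 in callosum, with 37 to 44 and 43 to 45 when 1 array was left out. The number lower ranged from 37 to 46 in cortex and 43 to 48 in callosum. Genes called higher were Rpl10l and Rpl7l1 in cortex with array weights, Rpl7l1 with low genes left out and Rpl10l without adult array 2, and in callosum Rps27 without adult array 1 and Rpl22l1 without P7 array 3. With the replicate block the counts were 45 and 48 here. Same-numbered arrays did not deviate together in every pair (correlations of 0.300, 0.062 and 0.245 between adult regions, and of -0.018 to 0.239 in the other comparisons), so the numbers were not taken to pair arrays; the block called 1 gene from P3 to P7 in cortex and 1 in callosum.

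Counts of 0 changed in some settings: array weights gave 1 gene between regions at P7, 2 from P3 to P7 in cortex and 3 in callosum, where quantile normalizing again gave 1, an intensity trend 5 and leaving out low genes 4. Leaving out 1 array gave 0 to 1 gene between regions at P3, 0 to 1 from P3 to P7 in cortex and 0 to 4 in callosum.

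Adult minus P7 medians in cortex were, for the large subunit, -0.50 with the mean of a gene's probe sets, -0.47 quantile normalized again and -0.62 without low genes (-0.57 to -0.53 without 1 array), and for the small subunit -0.46 quantile normalized again and -0.53 without both adult arrays numbered 1 (-0.64 to -0.53 without 1 array). In callosum the large subunit had -0.61, -0.53, -0.69 with arrays centred, -0.71 without low genes, -0.62 with array weights and -0.63 without the adult arrays numbered 1 (-0.66 to -0.59 without 1 array), and the small subunit -0.45 quantile normalized again and -0.62 centred (-0.63 to -0.58).

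The medians near 0 moved as follows. Between adult regions, the large subunit had -0.0527 centred, -0.0517 with array weights and -0.0634 without both adult arrays numbered 1 (-0.0671 to 0.0065 without 1 array), and the small subunit -0.0247 centred. From P3 to P7 in callosum, quantile normalizing again gave -0.0006 and -0.0058 (large subunit 0.0143 to 0.0917 without 1 array). The change of the regional difference from P7 to adult was -0.14 and -0.0536 without both adult arrays numbered 1 (-0.13 to -0.0258 and -0.0467 to 0.0509 without 1 array), and -0.0362 for the small subunit with the mean of probe sets. From P3 to P7 it was -0.0218 for the small subunit quantile normalized again (-0.0101 to 0.0683 without 1 array). The cause of these shifts was not tested. The files hold no background signal, so a limit for dim probe sets could not be set.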

Other observations

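Probe sets that name a ribosomal protein gene together with other symbols were left out of the 67 genes, and their values cannot be assigned to 1 gene. There were 57 such probe sets with distinct values. In a fit over all 41345 probe sets, 18 were lower and 1 higher in adult than in P7 cortex, and 24 were lower and 1 higher in callosum, where 4.01% and 7.33% of all probe sets were lower. Of the 26 with a mean of at least 8, 18 and 21 were lower, with medians of -0.46 and -0.50. The brightest that names Rpl10, which helps the subunits join, had a mean of 11.54 and differed by -0.10 in cortex (adjusted p = 0.757). The probe sets that rose both name Rpl13a, whose transcript hosts small nucleolar RNAs; they rose by 0.94 in cortex and, in another probe set, by 0.66 in callosum.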
